A study of Mus musculus with 4 samples.

Results

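The small proline-rich protein family was followed through mouse back skin epidermis, with its members chosen by name as the genes Sprr1a, Sprr1b, Sprr2a1, Sprr2a2, Sprr2d, Sprr2h, Sprr3 and Sprr4. These 8 genes were found among 32479 genes in the count tables, beside 7 further genes whose symbol starts with Sprr. The study asked what ceramide synthase 4 (CerS4), an enzyme that builds ceramides, does in the epidermis and in the hair follicle stem cell niche. Single epidermal cells of 4 female mice on a C57BL/6N background were profiled on postnatal day 19. Both controls carried a floxed CerS4 gene on both chromosomes without Cre recombinase (CerS4fl/flK14Cre-), and both knockout mice, called CerS4epi-/-, carried the same floxed alleles with Cre (CerS4fl/flK14Cre+). The keratin 14 promoter drives Cre in basal keratinocytes, so the deletion is passed on to interfollicular epidermis, hair follicle and sebaceous gland but not made in immune cells. The genotypes therefore differed in the Cre transgene as well as in CerS4. Each library was 1 mouse, and p-values describe the spread between 2 mice per genotype.

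Small proline-rich proteins are precursors of the cornified envelope, the protein shell that replaces the membrane of a keratinocyte as it dies at the skin surface. Transglutaminases join them through glutamine and lysine residues to loricrin, involucrin and other partners, and they act as cross-bridges between these proteins. Their genes stand side by side in the epidermal differentiation complex, and several are known to be induced by injury, barrier stress and oxidants as well as by normal differentiation. In the mouse genome GRCm39 the 8 members occupied 1 stretch of chromosome 3. Sprr2a1 (chr3:92123106-92129218), Sprr2a2 (chr3:92123106-92164031), Sprr2d (chr3:92246447-92248180) and Sprr2h (chr3:92292992-92294631) lay on the plus strand. Sprr1b (chr3:92344116-92346096), Sprr3 (chr3:92363809-92366031), Sprr1a (chr3:92390424-92393208) and Sprr4 (chr3:92407570-92407800) followed on the minus strand. All 8 were annotated as protein coding. The annotated Sprr2a2 gene spans Sprr2a1, and the Sprr4 model holds a coding sequence of 231 bases in 1 exon.

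The sequences before the start sites of Sprr1a, Sprr1b, Sprr2d and Sprr2h are shown because they were the members whose windows held the letters of AP-1, the motif described below them. Each window is the 250 bases upstream of the RefSeq start, 5′ to 3′ on the gene's strand, taken from the RefSeq promoter table of GRCm38.p6 and found once, letter for letter, in GRCm39. Capitals mark matches, on either strand, to 4 motifs: AP-1 (TGANTCA), ETS (GGAAGT), KLF (CACCC) and the antioxidant response element (TGACNNNGC).
Sprr1a, minus strand, chr3:92393189-92393438: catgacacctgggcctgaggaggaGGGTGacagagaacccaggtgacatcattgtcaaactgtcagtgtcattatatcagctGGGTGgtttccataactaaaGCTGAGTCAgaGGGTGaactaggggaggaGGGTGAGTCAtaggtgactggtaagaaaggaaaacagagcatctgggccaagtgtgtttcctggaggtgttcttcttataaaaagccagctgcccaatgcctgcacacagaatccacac
Sprr1b, minus strand, chr3:92346087-92346336: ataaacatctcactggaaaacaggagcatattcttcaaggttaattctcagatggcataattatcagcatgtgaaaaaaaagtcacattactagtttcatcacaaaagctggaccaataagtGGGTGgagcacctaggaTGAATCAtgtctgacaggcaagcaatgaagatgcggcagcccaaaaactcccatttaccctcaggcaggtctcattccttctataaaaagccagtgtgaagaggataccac
Sprr2d, plus strand, chr3:92246197-92246446: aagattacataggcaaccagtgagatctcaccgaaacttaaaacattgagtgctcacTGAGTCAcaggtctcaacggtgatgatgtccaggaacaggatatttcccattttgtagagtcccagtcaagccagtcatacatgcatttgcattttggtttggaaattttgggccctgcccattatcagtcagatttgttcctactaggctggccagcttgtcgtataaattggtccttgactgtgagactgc
Sprr2h, plus strand, chr3:92292742-92292991: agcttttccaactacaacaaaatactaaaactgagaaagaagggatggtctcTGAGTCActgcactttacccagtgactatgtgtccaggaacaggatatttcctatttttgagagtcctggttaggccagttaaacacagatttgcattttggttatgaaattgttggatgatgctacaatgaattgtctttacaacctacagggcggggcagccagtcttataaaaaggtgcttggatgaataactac
AP-1 is the Fos and Jun binding site. Its letters began at -146 and -116 before the start of Sprr1a, at -111 in Sprr1b, at -193 in Sprr2d and at -198 in Sprr2h, and were found in none of the windows of Sprr2a1, Sprr2a2, Sprr3 and Sprr4. In Sprr1a the AP-1 match at -146 overlapped the antioxidant response element match at -148, and that at -116 overlapped a KLF match at -119. Of 32851 windows of this length in the table, 6.75% held the AP-1 letters, 19.7% the ETS letters, 52.0% the KLF letters and 10.2% the antioxidant response element letters. A match is a description of the letters and was not tested as a binding site.

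The 2 Sprr2a members could not be told apart by their reads. Their coding sequences, 252 bases each, were identical, and that of Sprr2a3, a neighbouring gene, differed at 3 positions, shown here in capitals to explain why the 3 genes are summed below.
Sprr2a1 and Sprr2a2: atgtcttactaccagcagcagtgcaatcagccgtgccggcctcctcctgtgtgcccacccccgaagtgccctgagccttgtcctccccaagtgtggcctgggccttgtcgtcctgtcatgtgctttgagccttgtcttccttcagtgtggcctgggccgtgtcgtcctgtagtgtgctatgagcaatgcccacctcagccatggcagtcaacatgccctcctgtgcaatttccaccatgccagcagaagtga
Sprr2a3: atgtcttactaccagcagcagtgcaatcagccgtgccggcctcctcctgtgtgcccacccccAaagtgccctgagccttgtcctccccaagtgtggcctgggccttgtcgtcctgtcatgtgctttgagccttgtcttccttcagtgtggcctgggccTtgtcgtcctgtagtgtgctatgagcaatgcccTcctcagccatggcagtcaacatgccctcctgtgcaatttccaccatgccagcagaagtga
Of all stretches of 75 bases, the read length, 94.3% in the Sprr2a1 transcript and 94.7% in that of Sprr2a2 were found in another Sprr gene, against 47.5% for Sprr2a3, 0.329% for Sprr2d and 0 for Sprr1a, Sprr1b, Sprr2h, Sprr3 and Sprr4. The deposited counts share such reads among genes by estimation, and 67.9% of Sprr2a1 counts and 69.2% of Sprr2a2 counts were in entries that were not whole numbers. The sum of Sprr2a1, Sprr2a2 and Sprr2a3, called Sprr2a here, does not depend on how the reads were divided among them. Coding sequences of Sprr1a and Sprr1b shared 79.0% of aligned positions, and no stretch of read length was common to both.

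After cells with fewer than 1200 counts or more than 20% mitochondrial counts were left out, 34150 cells remained, 7567 to 9086 per mouse, with a median of 3267 to 3884 counts per cell. Over all barcodes, before this filter, a library held 39231945 to 53106317 counts. Some cell barcodes occurred in more than 1 library: 64 to 102 between a control and a CerS4epi-/- library, where 72.5 to 92.6 would be shared by independent draws. No barcode was shared between the 2 controls, where independent draws give 87.1, and none between the 2 CerS4epi-/- libraries, where they give 77.1. The libraries of 1 genotype were thus not independent in their barcodes while those of different genotypes were near it, and genotype and joint processing cannot be told apart. Cers4 read 2832 and 3968 counts-per-million (CPM) in sebaceous gland cells of the controls against 290 and 431 CPM in those of CerS4epi-/-, from 2 to 36 cells per mouse, and whether the reads come from the deleted exons was not checked. In the genotype test with edgeR, described below, Cers4 differed by 0.01 ± 0.44 on the log2 scale in basal cells (adjusted p = 0.9995). It differed by -0.81 ± 0.68 over all cells (adjusted p = 0.465) and by 0.20 ± 0.35 in T cells (adjusted p = 0.937), and passed in none of these. Cells were sorted into classes by marker genes, never by a Sprr gene, and a class could not be checked by eye against tissue. Basal cells of the interfollicular epidermis (IFE) were Krt14 and Krt5 high and Krt10 low, spinous cells Krt10 high and granular cells Lor high. Follicle cells high in Krt79 were called upper hair follicle, and infundibulum, the part of the follicle nearest the surface, where Cst6 was also high. Cst6-high cells with little Krt79 were kept as a separate class under that description. Cells high in Cst6 or above a low Krt79 cut were kept out of the IFE classes. Bulge cells were called inner by Krt75, and outer by at least 1 Lhx2 count without Krt75. Infundibulum cells numbered 219 and 166 in the controls and 585 and 634 in CerS4epi-/-, which was 2.58% and 1.83% against 6.49% and 8.38% of the cells of a mouse. RNA free in the suspension, read from barcodes with 10 to 100 counts, held Sprr1a at 632 and 433 CPM in the controls and 1506 and 1751 CPM in CerS4epi-/-.

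Sprr1a, an envelope precursor known from differentiating and injured epithelia, was highest in cells high in Cst6 or Krt79. Values are given here and below for control 1, control 2, CerS4epi-/- 1 and CerS4epi-/- 2, as CPM of the summed counts of a class. In Cst6-high Krt79-low cells Sprr1a read 25462, 25685, 34044 and 49449 CPM. Its level in the infundibulum was 14128, 10721, 20138 and 20704 CPM. The upper hair follicle held 3302, 2071, 2309 and 2276 CPM. These classes were the highest of the named classes in every mouse, and within each genotype they followed this order without overlap. The gates kept Cst6-high cells out of the IFE classes, and the part of this rule in the order was not tested. Granular cells read 625, 479, 356 and 282 CPM, spinous cells 187, 97.5, 189 and 129 CPM, and basal cells 39.5, 24.4, 85.4 and 119 CPM. The outer bulge stood at 80.6 and 72.0 CPM in the controls and at 430 and 775 CPM in CerS4epi-/-, where it was above granular cells. T cells, which should lack the gene, held 55.9, 10.5, 58.9 and 55.6 CPM, and control basal cells overlapped them.

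The class steps were tested within mice with edgeR, with the mouse as a block and adjusted over all genes. Of all genes tested 73.4% passed from basal to spinous, 78% from spinous to granular, 57.7% from basal to upper hair follicle, 32.3% from upper hair follicle to infundibulum and 19.4% from outer to inner bulge, so the 20 steps of the members that passed are read as sizes. Sprr1a rose by a log2 difference of 1.59 ± 0.28 (SE, 4 mice, adjusted p = 0.000442) from basal to spinous and by 2.24 ± 0.16 (adjusted p = 2.18e-08) from spinous to granular cells. From basal cells to the upper hair follicle it rose by 5.55 ± 0.39 (adjusted p = 1.29e-06), and from there to the infundibulum by a further 2.84 ± 0.18 (adjusted p = 6.32e-07). It was lower in the inner than in the outer bulge, by -1.92 ± 0.33 (adjusted p = 0.00061).

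Sprr4, a member whose role in the envelope is little defined, was concentrated in Cst6-high cells. Its counts in the infundibulum were 78, 35, 782 and 653, or 112, 69.6, 261 and 225 CPM. Cst6-high Krt79-low cells held 316, 215, 652 and 813 CPM. In both classes the CerS4epi-/- mice lay above the controls without overlap. Outside these cells there was little: 1.91 to 5.51 CPM in the upper hair follicle, 1, 1, 7 and 11 counts in basal cells, and 0, 0, 6 and 3 counts in spinous cells. From upper hair follicle to infundibulum it rose by 5.63 ± 0.19 on the log2 scale (adjusted p = 1.03e-08), and from basal cells to upper hair follicle by 3.06 ± 0.53 (adjusted p = 0.000703).

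**Figure D1:**
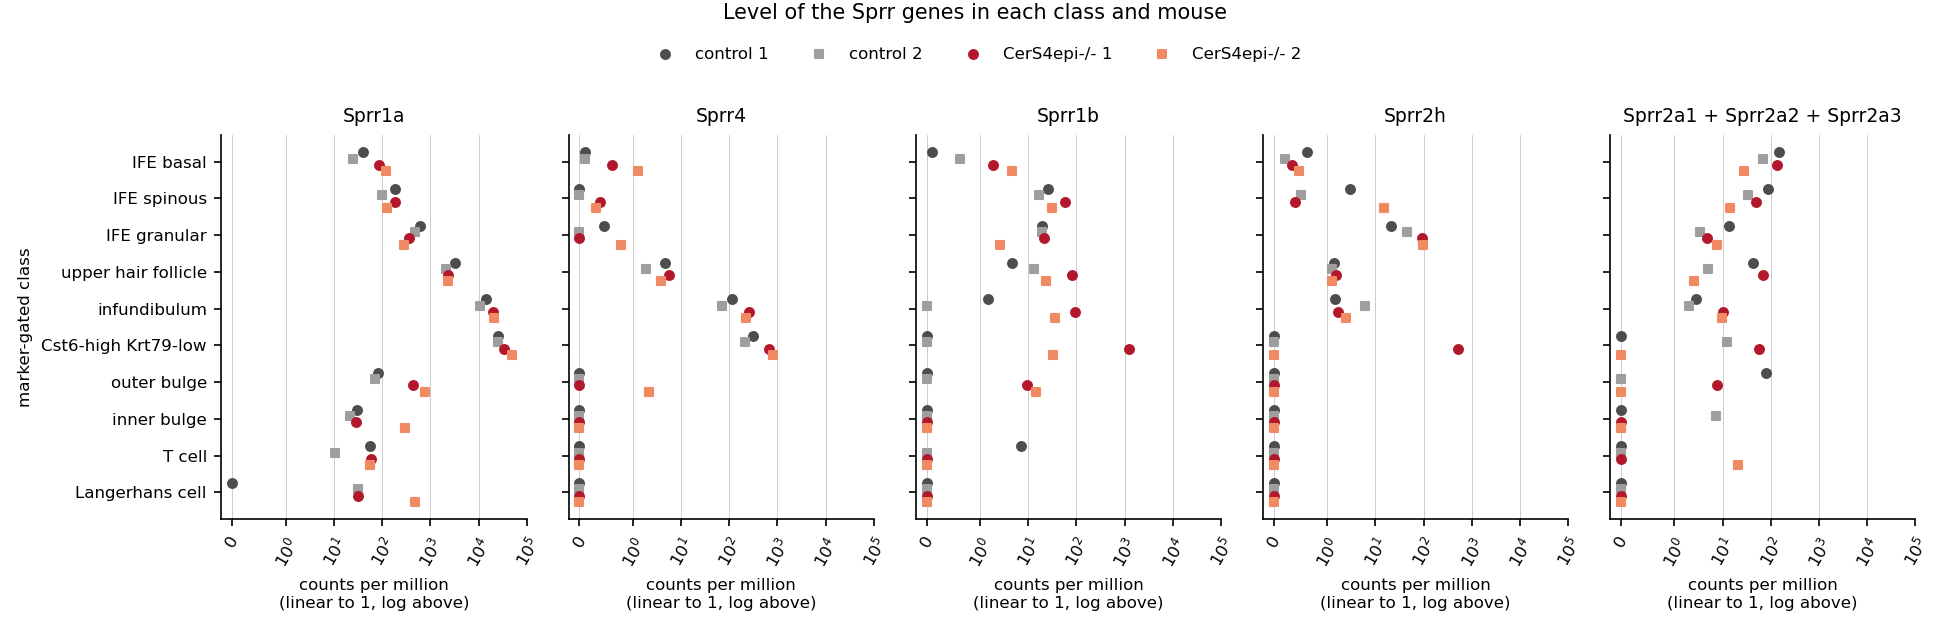
Level of each Sprr gene in CPM (log axis) in each marker-gated class, with 1 point per mouse. Sprr1a and Sprr4 peak in Cst6-high cells, Sprr2h in granular cells, apart from 1 Cst6-high cell of CerS4epi-/- 1, and the summed Sprr2a genes in basal and spinous cells.

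Sprr1b, the nearest relative of Sprr1a, showed another pattern. It read 26.2, 16.7, 59.1 and 30.4 CPM in spinous cells and 18.9, 19.6, 21.5 and 2.55 CPM in granular cells. In the controls these layers overlapped and were above all other classes, whereas in CerS4epi-/- Cst6-high Krt79-low, infundibulum and upper hair follicle cells had higher means and overlapped spinous cells. It rose by 4.56 ± 0.33 on the log2 scale from basal to spinous (adjusted p = 4.96e-07). From spinous to granular cells its difference was -0.25 ± 0.31 (adjusted p = 0.47). In granular cells 1 cell held 61.0%, 58.5% and 43.4% of its counts in control 1, control 2 and CerS4epi-/- 1. The upper hair follicle stood 4.22 ± 0.46 above basal cells (adjusted p = 2.96e-05).

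Sprr2h and Sprr2d, of the SPRR2 group of envelope cross-bridges, were genes of the granular layer. Sprr2h read 21.3, 44.4, 92.7 and 97.2 CPM in granular cells and rose by 4.86 ± 0.47 on the log2 scale from spinous to granular (adjusted p = 5.95e-07), after a rise of 3.37 ± 0.54 from basal to spinous (adjusted p = 0.00022). Within the granular layer it lay in the later cells, those high in Lce1m, a late envelope gene: 40.5, 111, 197 and 207 CPM there, against 8.48, 5.67, 29.7 and 26.7 CPM in earlier granular cells. Late cells were above early cells in every mouse. In Cst6-high Krt79-low cells of CerS4epi-/- 1 Sprr2h had 154 counts, 16.7% of its counts in that mouse, of which 151 were in 1 cell, and the other mice had 0. In spinous cells 37 of 53 Sprr2h counts of control 1 and 133 of 142 of CerS4epi-/- 2 were in 1 cell each. Spinous cells read 2.98, 0.514, 0.389 and 14.8 CPM of Sprr2h, against 0.620, 0.205, 0.345 and 0.466 CPM in basal cells. Sprr2d was near the limit of detection, with 10, 22, 79 and 20 counts over all cells, and its 6, 14, 13 and 16 counts in granular cells gave a step of 3.44 ± 0.45 from spinous (adjusted p = 1.18e-05).

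The Sprr2a genes ran the other way. Summed Sprr2a stood at 148, 70.4, 136 and 28.4 CPM in basal cells, 88.0, 33.3, 49.96 and 14.6 CPM in spinous cells and 13.5, 3.45, 4.86 and 7.66 CPM in granular cells. In all 4 mice basal cells were above spinous cells and spinous above granular cells. The mice did not separate by genotype, since CerS4epi-/- 1 was above control 2 in both basal and spinous cells. Sprr2a1 and Sprr2a2, fitted apart, fell by 0.74 ± 0.09 and 0.72 ± 0.13 on the log2 scale from basal to spinous and by 2.13 and 2.12 from spinous to granular. Sprr3, a member of internal squamous epithelia such as the oesophagus, had 2, 1, 0 and 1 counts and is not described further. The remaining Sprr2 genes, Sprr2b, Sprr2e, Sprr2f, Sprr2i, Sprr2j-ps and Sprr2k, had 3 to 17 counts each over all cells, against 669 for Sprr2a3.

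Where the counts of a gene lay in the tissue depends on the level in a class and on how many cells fell in it. Cst6-high cells, infundibulum and Krt79-low together, held 44.3%, 42.2%, 76.8% and 83.03% of all Sprr1a counts of a mouse, and the 3 IFE layers held 24.8%, 34.3%, 7.13% and 3.99%. For Sprr4 the Cst6-high share was 84.2%, 91.2%, 93.9% and 94.1%. For Sprr1b the shares were 95.3%, 92.3%, 46.8% and 60.5% in IFE and 0.162%, 0%, 27.5% and 20.6% in Cst6-high cells. Spinous cells did not hold less of it in CerS4epi-/-, at 26.2, 16.7, 59.1 and 30.4 CPM. In the infundibulum 109 of 277 counts of CerS4epi-/- 1 and 46 of 106 of CerS4epi-/- 2 were in 1 cell each. In Cst6-high Krt79-low cells of CerS4epi-/- 1, 1 cell held 277 of 364 counts. Granular cells held 63.5%, 94.2%, 74.7% and 73.7% of Sprr2h counts. Basal and spinous cells held 83.6%, 83.2%, 78.0% and 71.9% of summed Sprr2a counts. The genotypes did not overlap in these shares for Sprr1a, Sprr4, Sprr1b and summed Sprr2a, whereas for Sprr2h they did.

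**Figure D2:**
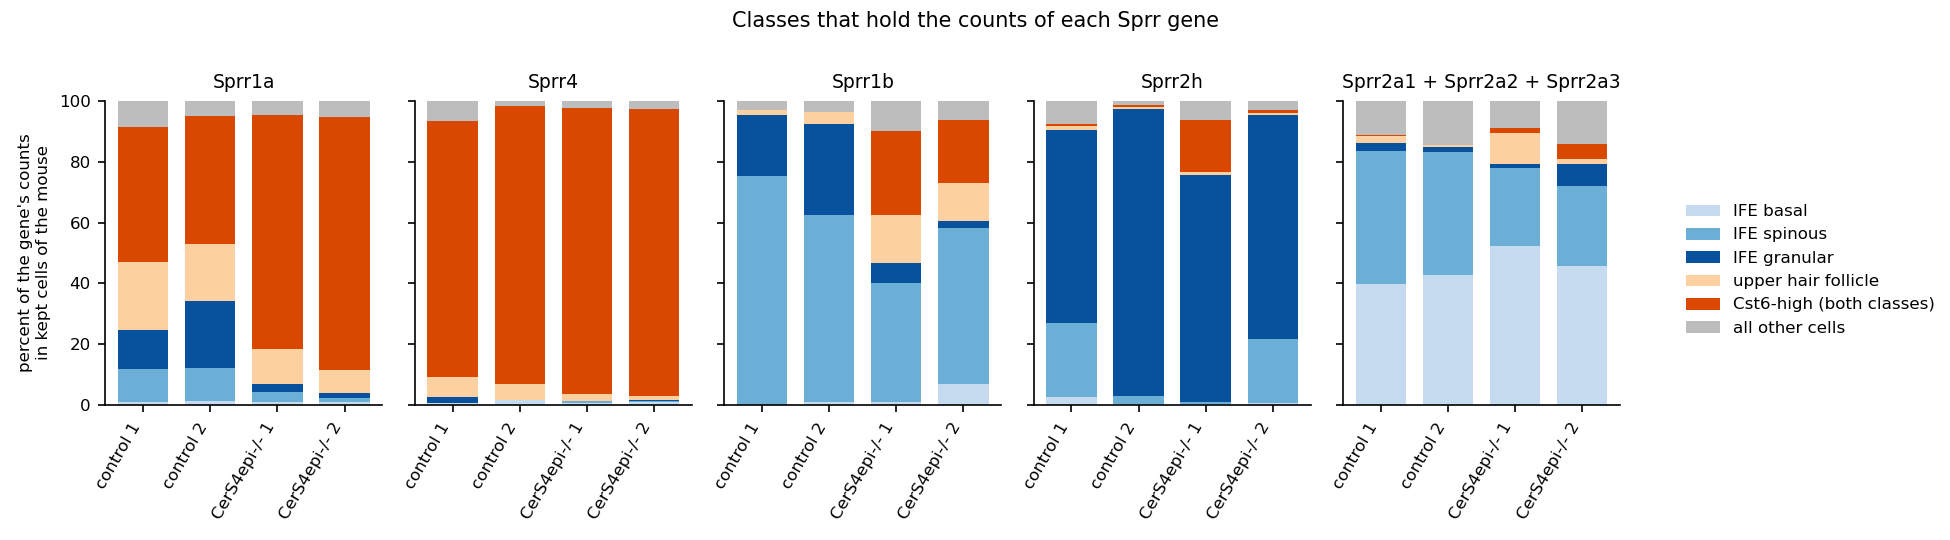
Percent of a mouse's counts of each Sprr gene that came from each marker-gated class, with 1 bar per mouse. The Cst6-high classes hold 76.8% and 83.03% of Sprr1a counts in CerS4epi-/-, against 44.3% and 42.2% in the controls.

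The genotypes were compared within each class over the sums of 2 mice each with edgeR's quasi-likelihood test, and all adjusted p-values below cover all genes tested in that class. Counted over classes, 10 calls of members passed an adjusted p of 0.05, 9 higher and 1 lower in CerS4epi-/-. In the infundibulum all 3 members that passed the count filter were higher, where 7.67% of all genes tested were called higher. Sprr1b, 1 of these, had 1 and 0 counts in the controls and passed the filter only through CerS4epi-/-. In basal cells 2 of 4 members were higher, at a background of 4.09% called higher. Sprr1b was 1 of these, on 1 and 6 counts in the controls, and again passed the filter only through CerS4epi-/-. Its calls in both classes could only be higher and are not read beside the background. In granular cells 1 of 6 was higher, with 8.05% of all genes called higher, and 1 was lower, with 4.96% called lower. In the upper hair follicle 1 of 5 was higher, against 4.83% of all genes. Among Cst6-high Krt79-low cells 1 of 2 was higher, against 6.65%, and in the outer bulge the 1 member tested was higher, against 2.81%. In spinous cells none of 5 passed with edgeR, at a background of 3.93% called, and none of Sprr1a, Sprr1b and Sprr2h with DESeq2. Of these 5 members 1 was under an unadjusted p of 0.05, as were 2570 of all 13148 genes tested. The 1 member tested in T cells did not pass with edgeR or with DESeq2, at a background of 0.0275% called. It was not under an unadjusted p of 0.05, where 248 of 3637 genes were. No member could be tested in the inner bulge and in Langerhans cells.

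**Figure D3:**
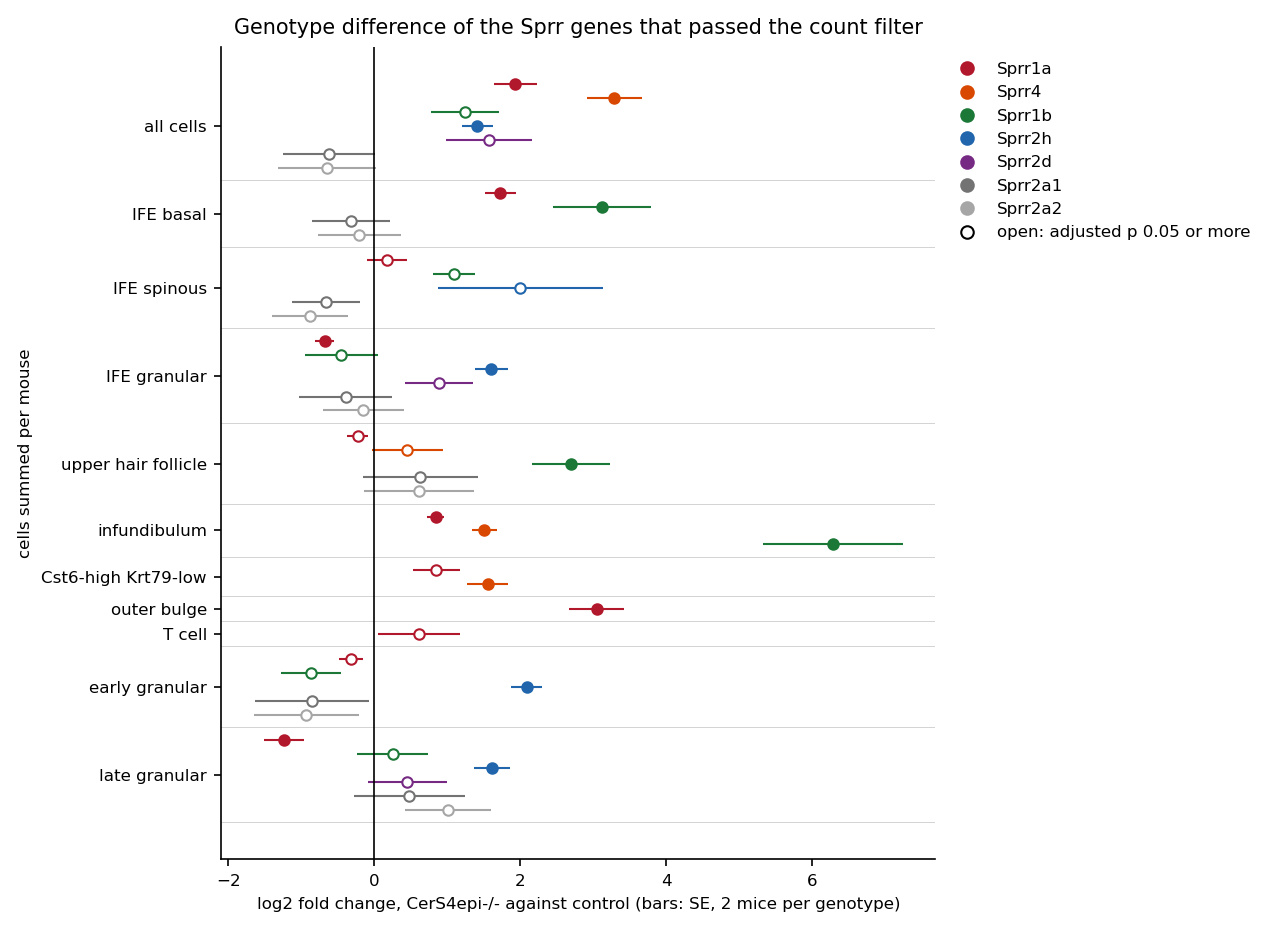
Log2 fold change of CerS4epi-/- against control for each Sprr gene that passed the count filter in each class, with bars for the standard error over 2 mice per genotype and filled points for an adjusted p under 0.05. Filled points lie to the right of 0 except for Sprr1a in granular and late granular cells, and the Sprr1b value in the infundibulum rests on 1 count in the controls.

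In the infundibulum Sprr4 rose by 1.51 ± 0.17 on the log2 scale (adjusted p = 1.08e-05) and Sprr1a by 0.84 ± 0.11 (adjusted p = 6.2e-05). Sprr1b went from 1 and 0 counts in the controls to 277 and 106 counts in CerS4epi-/-, with 109 and 46 of them in 1 cell of each mouse. On the CPM scale the change in Sprr1b is a ratio of 78.0 with a 95% counting interval of 13.9 to 3088, and the call (adjusted p = 0.000201) was lost without the filter on low counts (adjusted p = 0.0508). Summed Sprr2a rose by 2.66 ± 0.75 (adjusted p = 0.024) from 2, 1, 31 and 28 counts, of which 21 in CerS4epi-/- 2 were in 1 cell. In Cst6-high Krt79-low cells Sprr4 rose by 1.56 ± 0.28 (adjusted p = 0.00228), a call that was lost without CerS4epi-/- 1 (adjusted p = 0.321). Sprr1a there differed by 0.85 ± 0.32 (adjusted p = 0.101) and passed with DESeq2 (0.96, adjusted p = 0.011). Sprr1b in the same cells had 0 counts in both controls and 364 and 11 in CerS4epi-/-, with 277 of the 364 in 1 cell, and no fold is given.

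The Cst6-high cells themselves differed between genotypes along the axis that defines them. Cst6, a cysteine protease inhibitor of the envelope, Klk10, a kallikrein, and Krt6a, a keratin of stressed and follicular epithelium, moved with the Sprr genes: Klk10 in the infundibulum read 1496, 1084, 3739 and 4494 CPM and Krt6a 180, 141, 2019 and 3651 CPM. Their part in the result was not tested. Cells of the upper hair follicle, infundibulum and Cst6-high Krt79-low classes were then cut into bands of Cst6. The most Cst6-rich, with at least 300 per 10000 counts, made up 1.18%, 0.660%, 3.74% and 5.41% of the cells of a mouse. Sprr1a in the band of 100 to 300 read 12280, 9453, 12066 and 11693 CPM, so the genotypes overlapped. At or above 300 it read 22464, 18369, 29062 and 32094 CPM, and they did not. The share of cells with a Sprr4 count was 31%, 28.3%, 57.3% and 54.8% in the upper band against 13.9%, 6.92%, 17.6% and 14.5% in the band below.

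**Figure D4:**
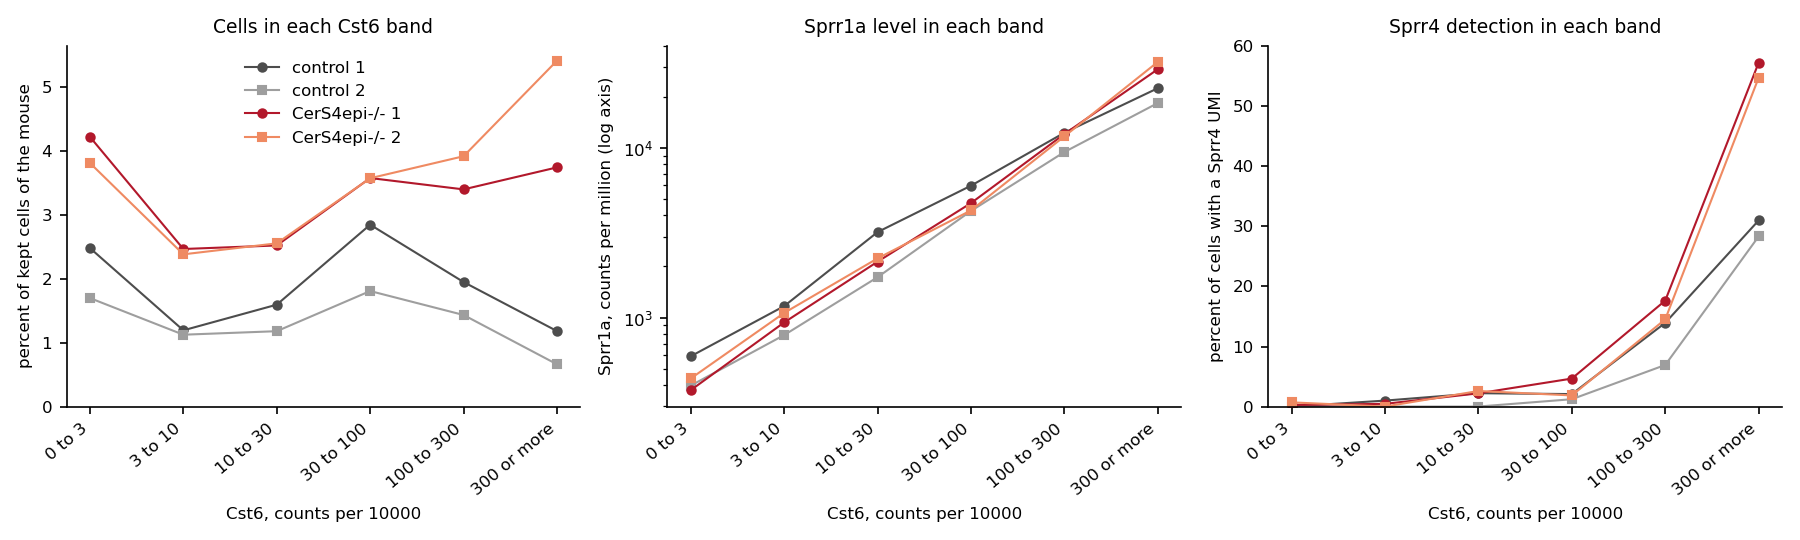
Upper hair follicle, infundibulum and Cst6-high Krt79-low cells in bands of Cst6 (counts per 10000), with 1 line per mouse: percent of the cells of the mouse in the band, Sprr1a level (log axis) and percent of cells with a Sprr4 count. In the highest band Sprr1a reads 22464 and 18369 CPM in the controls against 29062 and 32094 in CerS4epi-/-, and in the band below the genotypes overlap.

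Fitted within the infundibulum alone, the lower Cst6 band gave 0 of 2 members called, where 10.8% of all genes were called, and the upper band 3 of 3 called higher, where 3.68% of all genes were. Sprr1b, tested in the upper band alone, had 0, 0, 138 and 96 counts there and passed the filter only through CerS4epi-/-. In the lower band it missed the filter and read 1.97, 0, 106 and 7.99 CPM, so the counts of members called are not compared between bands. In the lower band neither Sprr1a nor Sprr4 was called with DESeq2 or was under an unadjusted p of 0.05, where 1756 of 7761 genes were. Sprr1a differed by 0.23 ± 0.13 in the lower band (adjusted p = 0.345) and rose by 0.79 ± 0.14 in the upper band (adjusted p = 0.00131). Sprr4 differed by 0.21 ± 0.30 below (adjusted p = 0.746) and rose by 1.28 ± 0.20 above (adjusted p = 0.000414). Without control 1 both differences in the lower band passed as well, at 0.49 (adjusted p = 0.000385) and 1.20 (adjusted p = 0.0348). The upper-band calls were lost without the filter on low counts, with adjusted p from 0.195 to 0.397. This split was chosen after the values had been seen, and the difference between the bands was not tested.

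In basal cells Sprr1a rose by 1.73 ± 0.21 on the log2 scale (adjusted p = 0.0032), from 382 and 238 counts in the controls to 991 and 1019 in CerS4epi-/-. Both CerS4epi-/- mice were above both controls, and the call was lost without either CerS4epi-/- mouse (adjusted p = 0.175 and 0.147). Free Sprr1a RNA was also higher in the CerS4epi-/- suspensions, and its part in the result was not tested. T cells of the same mice, which receive that RNA too, differed by 0.61 ± 0.56 (adjusted p = 0.841), and by 2.65 with a looser gate on T cells (adjusted p = 0.00793). Sprr1b passed in basal cells with 3.12 ± 0.67 (adjusted p = 0.028) on 1, 6, 22 and 39 counts, 32 of the 39 in 1 cell, a ratio of 8.38 with a counting interval of 3.83 to 21.7. It was lost without the filter on low counts (adjusted p = 0.118) and without any library other than control 2. Neither Sprr2a1 (-0.32) nor Sprr2a2 (-0.20) passed. In spinous cells Sprr1b differed by 1.10 ± 0.29 (adjusted p = 0.0776), and passed without control 1 (adjusted p = 0.00495) or CerS4epi-/- 2 (adjusted p = 0.00633). Sprr1a differed there by 0.18 ± 0.27 (adjusted p = 0.764), and by 0.71 without control 1 (adjusted p = 0.0319). Sprr2h differed by 2.00 ± 1.13 (adjusted p = 0.375), and by 3.11 without CerS4epi-/- 1 (adjusted p = 0.0176).

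In granular cells the members went in both directions. Sprr2h rose by 1.61 ± 0.23 on the log2 scale (adjusted p = 0.00166), and both CerS4epi-/- mice were above both controls. Sprr1a fell by 0.68 ± 0.13 (adjusted p = 0.00729), which was lost with DESeq2 (adjusted p = 0.0731) and without the 5% of cells with the highest totals (-0.22, adjusted p = 0.816). Sprr2d differed by 0.89 ± 0.47 (adjusted p = 0.258) and Sprr1b by -0.45 ± 0.49 (adjusted p = 0.611), or by -2.81 without CerS4epi-/- 1 (adjusted p = 6.5e-06). Early granular cells gave 1 of 5 members called higher, at a background of 5.65%, and late cells 1 of 6 called higher, at 8.89%, and 1 called lower, at 5.3%. Sprr2h rose in both, by 2.09 ± 0.21 early (adjusted p = 0.000216) and 1.61 ± 0.25 late (adjusted p = 0.000163), though 60.6% to 100% of its early counts in a mouse were in 1 cell and the late call was lost with DESeq2 (adjusted p = 0.101). Sprr1a differed by -0.32 ± 0.16 early (adjusted p = 0.251), passing without control 2 or CerS4epi-/- 2, and fell by 1.23 ± 0.27 late (adjusted p = 0.00383). Its late values were 656, 673, 357 and 116 CPM, with 34.2%, 40.2%, 68.6% and 20% of the counts in 1 cell, and the late call was lost with DESeq2 (adjusted p = 0.355) and without control 1 (adjusted p = 0.259).

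In the upper hair follicle Sprr1b rose by 2.69 ± 0.54 on the log2 scale (adjusted p = 0.00327), from 10 and 21 counts in the controls to 367 and 72 in CerS4epi-/-. The call was lost with DESeq2 (adjusted p = 0.274). Sprr1a there differed by -0.23 ± 0.15 (adjusted p = 0.404), and by -0.53 without control 2 (adjusted p = 7.85e-09), while Sprr4 differed by 0.46 ± 0.48 (adjusted p = 0.644). Summed Sprr2a read 42.3, 5.09, 67.7 and 2.54 CPM, with 58.9% of the counts of control 1 and 77.2% of those of CerS4epi-/- 1 in 1 cell, and the genotypes overlapped.

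Cells gated as outer bulge, where hair follicle stem cells lie, held at least 1 Lhx2 count and less than 1 of Krt75, and no other bulge marker was required. Their median totals were 2423, 2363, 3522.5 and 3159 counts, and the part of depth in the gate was not tested. Sprr1a rose there by 3.05 ± 0.38 on the log2 scale (adjusted p = 0.000457). Its counts there were 12 and 6 in 49 and 27 control cells and 227 and 367 in 124 and 114 CerS4epi-/- cells, a ratio of 7.65 with a counting interval of 4.80 to 13. The cell with the most held 24.2% and 18.8% of the CerS4epi-/- counts, and the median per cell was 0 in every mouse. Cst6, whose high cells were kept out of this class, read 1034, 408, 1319 and 1620 CPM there, and Lhx2, the stem cell factor that gated them, 571, 468, 476 and 403 CPM. Cst6 was thus higher in both CerS4epi-/- mice, and the part of Cst6-high cells among the outer bulge cells was not tested. Inner bulge cells held 29.9, 21.9, 29.0 and 303 CPM of Sprr1a, with 32 of 52 counts of CerS4epi-/- 2 in 1 cell. Langerhans cells held 0, 31.4, 32.1 and 472 CPM, with 57 of 61 counts of CerS4epi-/- 2 in 1 cell.

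Over all kept cells, where more cells of a class and more RNA per cell cannot be told apart, 3 of 7 members tested were higher in CerS4epi-/-, at a background of 8.18% called higher. Sprr4 rose by 3.29 ± 0.38 on the log2 scale (adjusted p = 0.00597), from 3.79 and 1.33 to 21.7 and 28.1 CPM. Sprr1a rose by 1.94 ± 0.30 (adjusted p = 0.0122), from 782 and 409 to 1914 and 2644 CPM. Sprr2h rose by 1.41 ± 0.21 (adjusted p = 0.0112), from 5.45 and 8.88 to 19.2 and 19.2 CPM. For Sprr1a and Sprr4 these whole-tissue differences were larger than those within the infundibulum, a class that held more cells in CerS4epi-/-, and the gap between the 2 measures was not tested. Sprr1b differed by 1.24 ± 0.46 (adjusted p = 0.127), and by 1.82 without CerS4epi-/- 2 (adjusted p = 0.000579).

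Whether the genotype difference of a gene was itself different between classes was tested against basal cells, with the mouse as a block. For Sprr1a it was smaller than in basal cells by 1.53 ± 0.25 in spinous cells (a difference of -1.53 on the log2 scale, adjusted p = 0.0136, 1.22% of all genes called), and by more in granular cells (-2.41 ± 0.21, adjusted p = 0.000115, 4.9% called). In the upper hair follicle the difference was -1.94 ± 0.12 (adjusted p = 2.18e-10, 4.32% called) and in the infundibulum -0.86 ± 0.13 (adjusted p = 0.000102, 5.65% called). In the outer bulge it was larger than in basal cells, by 1.5 ± 0.37 (adjusted p = 0.00527, 2.38% called), a call that was lost without control 1 (adjusted p = 0.636) and without CerS4epi-/- 2 (adjusted p = 0.159). No other member passed this test, nor did Sprr1a in Cst6-high Krt79-low cells (2.74% called) or T cells (0.126% called). Sprr1b differed by -3.64 in granular cells (adjusted p = 0.0894), passing without control 1 or CerS4epi-/- 1, and by 3.17 ± 1.97 in the infundibulum (adjusted p = 0.479), passing without CerS4epi-/- 2.

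The share of cells with a count of a gene shows how widely it was detected. In the infundibulum 93.2%, 96.4%, 98.5% and 99.2% of cells had Sprr1a, and 18.3%, 11.4%, 37.6% and 35.0% had Sprr4. When each cell was thinned to 1200 counts, the Sprr4 shares were 10.05%, 6.02%, 19.5% and 17.5%. No T cell had a Sprr4 count, 0 of 88, 56, 126 and 124. With 3 cells of the total taken as the limit for a count of 0, this allows shares of up to 3.41%, 5.36%, 2.38% and 2.42%. Sprr4 was detected in a larger share of infundibulum cells in both CerS4epi-/- mice, 36.3% ± 1.83 against 14.9% ± 4.82 (SD, n = 2), with p = 0.333 in an exact two-sided permutation test, the smallest p that 2 mice against 2 allow. Sprr1a was found in 6.07%, 4.86%, 15.4% and 16.0% of basal cells, or 3.43%, 2.68%, 8.23% and 9.98% after thinning, and in 6.82%, 1.79%, 9.52% and 9.68% of T cells, or 6.82%, 0%, 3.97% and 8.87% after thinning. The median totals were 2622 to 3177 counts in basal cells and 1483 to 1900 in T cells. In every mouse the basal share before thinning lay within the exact 95% binomial interval of the T cell share, 2.54% to 14.3%, 0.0452% to 9.55%, 5.02% to 16.0% and 5.10% to 16.3%, and it is not read as expression.

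Sprr1b and Sprr2h were found in few cells. Spinous cells had Sprr1b in 1.90%, 2.06%, 8.02% and 4.45%, and in 0.766%, 0.772%, 3.16% and 1.71% after thinning. Late granular cells had Sprr2h in 7.72%, 7.12%, 24.4% and 16.8%, and in 3.86%, 3.86%, 13.6% and 7.03% after thinning. Both shares were larger in each CerS4epi-/- mouse than in each control, again with p = 0.333 in the exact permutation test. In the outer bulge 12.2%, 11.1%, 33.9% and 36.8% of cells had Sprr1a, and 10.2%, 11.1%, 17.7% and 19.3% after thinning, which narrowed the gap between genotypes.

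**Figure D5:**
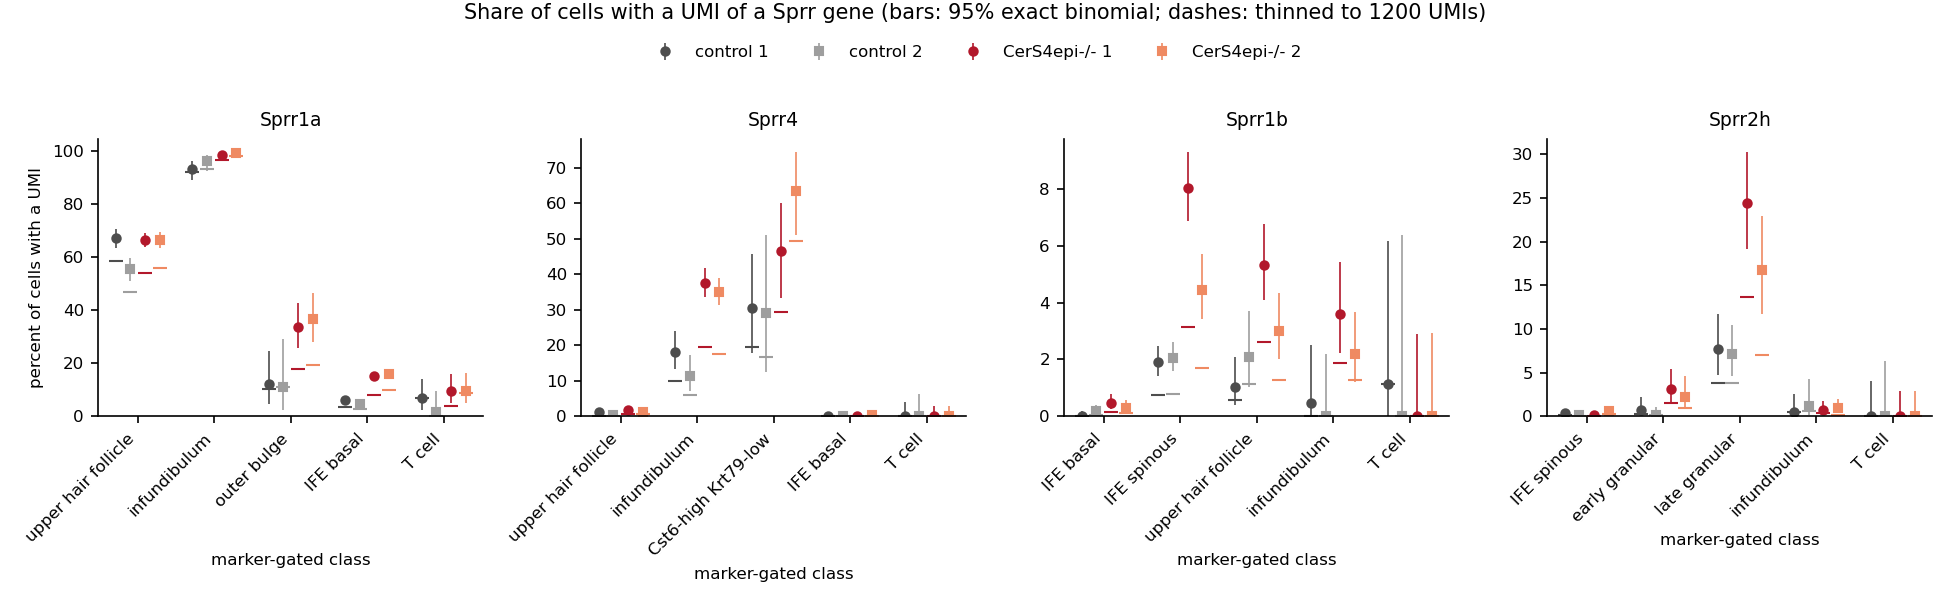
Percent of cells with a count of Sprr1a, Sprr4, Sprr1b and Sprr2h in chosen classes and in T cells, with 1 point per mouse, 95% exact binomial bars that cover counting error only, and dashes after thinning each cell to 1200 counts. Sprr4 in the infundibulum and Sprr2h in late granular cells lie higher in both CerS4epi-/- mice.

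Genes that act with the Sprr proteins were read from lists, beside the share of all genes called in the same class. That share was 4.09% higher and 2.64% lower in basal cells, 2.41% higher in spinous cells, 8.05% higher and 4.96% lower in granular cells, 4.83% higher and 5.02% lower in the upper hair follicle, and 7.67% higher and 6.26% lower in the infundibulum. Of the envelope partners, none of 11 passed with edgeR in basal cells and none of 12 in spinous cells. Under an unadjusted p of 0.05 were 1 and 3 of them, beside 2811 of 12775 and 2570 of 13148 of all genes tested. Of these partners 4 were higher and 2 lower of 12 in granular cells, 0 and 5 of 11 in the upper hair follicle, and 1 and 5 of 12 in the infundibulum. In the infundibulum Cnfn, cornifelin of the envelope, fell by 1.47 ± 0.12 on the log2 scale and Anxa1, an annexin cross-linked into it, by 1.41 ± 0.10, while Sprr1a, Sprr1b and Sprr4 rose. Of the transglutaminases, 2 of 2 were higher in granular cells, Tgm1 by 0.54 and Tgm5 by 0.46, and 1 of 2 in the infundibulum, Tgm5 by 0.72. In basal and in spinous cells 1 of 3 was higher. None of 3 passed in the upper hair follicle, where 1 of them and 2297 of all 10374 genes were under an unadjusted p of 0.05. In the outer bulge the 1 transglutaminase tested differed by -2.02 and passed as lower. Of the transcription factors listed as regulators of the late epidermal genes, 5 were higher and 1 lower of 14 in basal cells, 8 and 0 of 13 in granular cells and 3 and 3 of 14 in the infundibulum. In spinous cells 4 and 0 of 14 were, and in the upper hair follicle 1 and 3 of 14. Ehf, an ETS factor of epithelia, rose by 2.00 ± 0.13 in basal cells, 1.46 in granular cells, 1.35 ± 0.14 in the infundibulum and 3.05 in the outer bulge, and Elf3, a related factor, by 1.73 ± 0.29 in basal cells and 1.98 ± 0.48 in the infundibulum.

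Genes of stress were read in the same way. Of the immediate early genes, which respond within minutes to handling of cells as well as to signals in tissue, 6 of 10 were higher in basal cells, 6 of 10 in spinous cells and 8 of 10 in granular cells, where 4.09%, 2.41% and 8.05% of all genes were. None of 10 passed in the upper hair follicle, where 3 of them and 2297 of all 10374 genes tested were under an unadjusted p of 0.05. In the infundibulum 2 of 10 were lower, where 6.26% of all genes were. Their part in the Sprr differences was not tested. Of the targets of the oxidant sensor NRF2, 3 of 6 were higher in the infundibulum, against 7.67% of all genes: Hmox1, haem oxygenase, by 1.27, and Gclm and Gclc, the subunits of the enzyme that starts glutathione synthesis, by 1.04 and 0.79. None of 6 passed in its lower Cst6 band, where 10.8% of all genes were called, and none of 5 in its upper band, where 3.68% were called higher. In basal, spinous, granular and upper hair follicle cells 1 of 7, 0 of 8, 1 of 7 and 1 of 6 were higher, where 4.09%, 2.41%, 8.05% and 4.83% of all genes were. Of the keratinocyte stress genes 3 were higher and 2 lower of 6 in the infundibulum. Krt6a, a keratin of stressed epidermis, rose there by 4.25 ± 0.23, its relative Krt6b passed as higher, and Serpinb2, a serpin of differentiating keratinocytes, fell by 2.01.

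The genes most alike to each member were found by correlating log2(CPM + 1) over 40 sums, 10 classes in 4 mice, among 8953 genes. These sums share libraries and classes, so the coefficients describe the pattern. Gate genes such as Cst6 and Lor were among the candidates, and their levels across classes are set in part by the gates. Sprr1a was most like Cst6 (Pearson r = 0.919), Pla2g2d (0.901) and Slc26a9 (0.897). Sprr4 was most like Degs2 (0.969), a desaturase and hydroxylase of ceramide synthesis, Sgpp2 (0.952), a phosphatase of sphingosine 1-phosphate, and Rptn (0.948), repetin of the envelope. Sprr2h followed late envelope genes, Lce1f (0.911), Lce1d (0.898) and Lce1e (0.881), and Sprr2d was most like Fmo2 (0.887), Tmem229a (0.876) and Lor (0.856). Coefficients were lower for Sprr2a1, led by H60c (0.760), and for Sprr1b, where Cstdc5 (0.747) was among the 5 highest.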

How the data were processed

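Dorsal epidermis was digested for 60 min at 37 °C and profiled by BD Rhapsody single-cell RNA-seq. The authors mapped reads with STARsolo (STAR 2.7.10a, with fastp 0.23.2 and Scanpy 1.9.1 in the submitters' processing notes) to GRCm39 with Gencode vM29, sharing multi-mapped reads by expectation maximization without a cell filter. The deposited values are estimated counts per gene and barcode, not whole in 4.55% to 4.81% of entries, and were rounded after summing. Positions come from a later Gencode release on the same build.

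Cells were barcodes totalling 1200 counts or more, of which up to 20% were mitochondrial. No doublet caller was run, and an alternative left out the 5% of cells with the highest totals. Classes came from marker cuts per 10000 counts, among them Krt79 10, Cst6 100, Lor 100, Krt10 100, Krt14 with Krt5 30 and Lce1m 100, and cells past conflicting cuts were set aside. Within 1.25-fold of the Cst6 cut lay 443 cells, beside 1851 past it. Counts were summed per class and mouse and tested with edgeR 4.0.16 (TMM, filterByExpr, quasi-likelihood) with Benjamini-Hochberg adjustment over all genes, a threshold of 0.05, and 20 cells or more per mouse. DESeq2 1.42.0 was an alternative, beside other filters, gates, cell numbers and leaving out each mouse. Intervals are 95% and cover counting error only. On simulated data 81% of log2 changes of 1 were recovered in basal cells and 47.9% in the infundibulum. Same-numbered mice did not deviate together (correlations -0.016 to 0.126), so replicate numbers did not pair mice.

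The members and lists were chosen with earlier results of these data known. List genes named are among the 3 largest changes that passed in a comparison, and genes alike to a member among its 5 highest correlations. The splits by Lce1m and Cst6, the sums without the highest cell, and the genes named for Sprr-high cells and for Cst6-high cells were chosen after seeing the data.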

Additional observations from a re-analysis of the deposited data

Results flagged for a closer look

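The genotype difference of Sprr1a differed between cell classes by the test of the difference itself, edgeR's class by genotype term with the mouse as a block, 2 mice per genotype. Against basal cells it was lower by a log2 difference of -1.53 in spinous cells, -2.41 in granular cells, -1.94 in the upper hair follicle and -0.86 in the infundibulum, and higher by 1.5 in the outer bulge. The genotype differences behind these values were 1.73 in basal cells, 0.18 in spinous cells, -0.68 in granular cells, -0.23 in the upper hair follicle, 0.84 in the infundibulum and 3.05 in the outer bulge. Control basal cells held 39.5 and 24.4 CPM of Sprr1a and overlapped control T cells, at 55.9 and 10.5 CPM. In CerS4epi-/- basal cells held 85.4 and 119 CPM and lay above T cells, at 58.9 and 55.6 CPM. Free Sprr1a RNA was higher in CerS4epi-/-, 1506 and 1751 against 632 and 433 CPM. The part of free RNA in the basal difference was not tested.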

How the results depend on the processing

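Of the 20 genotype differences of Sprr genes that passed, counting early and late granular cells, both Cst6 bands and all cells, 19 were put to 250 alternatives and kept their direction in all of them, and summed Sprr2a in the infundibulum was put to none. In total 17 of these alternatives lost the call. Those calls were Sprr1a in basal, granular and late granular cells, Sprr1b in basal cells, upper hair follicle and infundibulum, Sprr4 in Cst6-high Krt79-low cells, Sprr2h in late granular cells and all 3 members in the upper Cst6 band. Sprr1a in the outer bulge had 14 alternatives and kept its call in them. The stricter gate, a floor of 2000 counts per cell and a mitochondrial ceiling of 10% could not be run there. Control 2 then had 12, 19 and 16 outer bulge cells, fewer than the 20 required. The outer bulge call was thus not checked against these settings. Of 20 class steps that passed, 131 of 136 alternatives kept the call, and the 5 that lost it concerned Sprr2a1 and Sprr2a2 between upper hair follicle and infundibulum. Members called over the classes numbered 10, 18 without the filter on low counts and 13 to 17 when 1 mouse was left out, with 16 without control 1 and 17 without control 2. In all cells 3 members were called and 3 to 5 with 1 mouse left out, 5 without either CerS4epi-/- mouse. The class steps called numbered 17 to 21 with 1 mouse left out. The differences of genotype effects called numbered 5, 9 without the filter and 6 to 10 with 1 mouse left out, 10 without CerS4epi-/- 1 and 9 without CerS4epi-/- 2. List genes called numbered 116, and 85 to 121 with 1 mouse left out. A mouse left alone in its genotype was assumed to vary like the other genotype. With the replicate number as a block, which does not pair these mice, 5 members were called in all cells and 14 over the classes.

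Directions turned only in values that did not pass. With whole-number entries only, Sprr2a1 and Sprr2a2 in basal cells gave 0.146 and 0.176, and their shares of cells differed by 0.128 and 0.140 percentage points. With equal cell numbers Sprr1a in spinous cells gave -0.0372. Without the 5% of cells with the highest totals Sprr2h in spinous cells gave -1.91 and Sprr1b in granular cells 2.00, and without the highest cell of each gene -0.326 and 0.0838. Sprr1b between upper hair follicle and infundibulum gave -0.667 with DESeq2. With 1 mouse left out, Sprr2a1 and Sprr2a2 in basal cells ranged from -1.88 to 0.353 and from -1.91 to 0.515, Sprr1a in spinous cells from -0.219 to 0.712, in the upper hair follicle from -0.528 to 0.157, in early granular cells from -0.629 to 0.0682 and in the lower Cst6 band from -0.00707 to 0.492. Sprr4 in that band ranged from -0.253 to 1.20, Sprr2h in spinous cells from -2.10 to 3.73, Sprr1b in granular cells from -2.81 to 0.284 and between spinous and granular cells from -0.705 to 0.0579. The cause was not tested. Low counts limit Sprr2d, with 10 to 79 per mouse over all cells, and Sprr1b in follicle cells of the controls, with 0 to 21 per class.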

Other observations

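Several Sprr genes were carried by a minority of cells, described here by the genes that were higher in them, with no test. Among basal and spinous cells 305 held at least 10 per 10000 of summed Sprr2a, 138, 56, 96 and 15 per mouse. These cells read 687 CPM of Pyy, the peptide YY hormone, against 22.8 in the other cells of both layers, and more of Egln3, a prolyl hydroxylase (244 against 91.9 CPM), Pgk1, a glycolytic enzyme (491 against 190), and Bnip3, a mitochondrial protein (143 against 59.3). Among spinous cells 43 were as high in Sprr1b, 7, 12, 20 and 4 per mouse. They read 704 against 25.3 CPM of Krt16, a stress keratin, and 163 against 7.72 CPM of Srxn1, an antioxidant reductase.

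Among granular cells 45 were as high in Sprr2h, 4, 9, 23 and 9 per mouse, with 558 against 25.9 CPM of Lce3c and 166 against 14.7 CPM of Defb14, a defensin. Among infundibulum cells 74 were as high in Sprr4, 4, 1, 39 and 30 per mouse. These read 472 against 27.7 CPM of Rptn, 1514 against 141 CPM of Atp12a, a proton pump, and 17557 against 2756 CPM of Klk10. Most of these cells came from CerS4epi-/-, whose infundibulum as a whole held more Klk10, so the contrast also holds the genotype difference. Of the 79 Sprr2d counts of CerS4epi-/- 1, 61 lay in cells past conflicting gates, which held 239 cells in all. Free RNA held Sprr4 at 3.14, 1.92, 13.6 and 13.9 CPM and summed Sprr2a at 66.0, 46.0, 35.7 and 21.3 CPM.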
